A study of Homo sapiens with 8 samples.

Results

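The tetraspanin genes were followed through the knockdown of ESRRA in MDA-MB-231 cells. MDA-MB-231 is an established human line from a breast carcinoma that lacks the estrogen and progesterone receptors. The family was taken as every symbol of the count table that starts with TSPAN and a digit (22 symbols) together with 11 members that carry other names: CD9, CD37, CD53, CD63, CD81, CD82, CD151, UPK1A, UPK1B, PRPH2 and ROM1. These are 33 of 23368 gene symbols. By means of INTERFERin, a transfection reagent, cells received either siC, the control siRNA, or siE1, siE2 or siE3, which are 3 different siRNAs against ESRRA. ESRRA encodes ERRα, an orphan nuclear receptor known for its control of mitochondrial energy genes. RNA-seq gave 2 libraries per siRNA, 8 in all. No source used here gives the time between transfection and harvest. All groups share 1 cell line. Nothing in the labels ties the replicates to separate cultures, so the p-values reflect only how far these libraries spread, and that spread may be technical.

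Tetraspanins are small proteins that pass through the membrane several times and assemble, with each other and with partner proteins, into patches of the cell surface and of endosomes. They have no enzyme activity of their own and act by placing integrins, proteases and growth factor receptors. CD9, CD81 and CD63 are the usual markers of extracellular vesicles, CD151 holds laminin-binding integrins, and CD82 (KAI1) is known as a suppressor of metastasis in several carcinomas. The TspanC8 subfamily escorts the sheddase ADAM10 to the surface.

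Total counts ran from 21835995 to 25880548 per library. In a chi-square test of their counts, the statistic divided by its degrees of freedom was 3.11 to 5.12 for libraries of the same siRNA and 40.6 to 75.1 for libraries of different siRNAs. ESRRA fell with every siRNA, by 2.62 (siE1), 2.99 (siE2) and 2.92 (siE3) on the log2 scale. In CPM (counts scaled to library size with TMM factors), the markers of the line VIM, CD44 and AXL stood at 3606, 717 and 1544 under siC. ESR1 had 0 or 1 count per library, PGR 0 and CDH1 0 to 3. ERBB2 was at 57.5 CPM and the epithelial keratin KRT18 at 268.

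Of the 33 members, 22 had enough counts for testing. The 11 that did not pass the filter had at most 38 counts over all 8 libraries. Among them were the leukocyte members: CD37 had 2 to 9 counts per library, CD53 had 3 counts in 1 siE1 library and 0 elsewhere, and TSPAN32 had 0 or 1. Of the leukocyte markers, PTPRC had 0 to 2 counts, CD3E had 0 and CD79A had 2 to 5. CD14, a monocyte marker, had 4 and 4 counts under siC, 18 and 18 with siE1, 7 and 9 after siE2, and 4 and 10 with siE3. Its log2 fold change with siE1 was 2.05. It passed the filter through the siE1 libraries alone, so its p-value is not used. The leukocyte markers summed to 0.319 and 0.386 CPM under siC, to 0.772 to 0.904 with siE1, to 0.476 to 0.561 after siE2 and to 0.274 to 0.649 with siE3. Their part in the results was not tested. The urothelial plaque proteins UPK1A and UPK1B had 1 count in 1 library and none at all, and the photoreceptor disc protein PRPH2 had 0 to 2. TSPAN7, TSPAN8, TSPAN11, TSPAN16 and TSPAN19 had 0 to 5 counts per library. In these libraries a count of 0 allows a level of up to 0.116 to 0.137 CPM (3 counts, counting error only). Members kept by the filter could pass through the group in which they were high, so counts over the 22 describe the tested members only.

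Ranked by reads per exon length, the control cells were dominated by the vesicle and adhesion tetraspanins. Levels are CPM per kilobase of exon, with exon lengths taken from GENCODE v29 (GRCh38), while the authors used another build. CD63, a protein of late endosomes and vesicles, led at 81.9 ± 0.202 (SD, n = 2 here and below). CD151 followed at 55.5 ± 0.697, CD9 at 37.0 ± 0.355 and CD81 at 32.2 ± 1.07. A middle group held TSPAN3 (20.4 ± 0.539), TSPAN17 (16.7 ± 0.351) and TSPAN4 (13.5 ± 0.111). On this scale CD82 stood lower, at 8.36 ± 0.992, close to TSPAN14 (7.22 ± 0.203), TSPAN6 (6.29 ± 0.0364) and TSPAN5 (6.04 ± 0.308). TSPAN12, TSPAN9, TSPAN33 and TSPAN15 lay between 4.12 and 3.28, TSPAN31 and TSPAN13 at 1.87 and 1.74, and TSPAN2, TSPAN1, TSPAN18, ROM1 and TSPAN10 between 0.771 and 0.0557. The siC libraries overlapped for 3 pairs of neighbours in this order: TSPAN12 and TSPAN9, TSPAN33 and TSPAN15, and TSPAN31 and TSPAN13. For the other neighbours they did not overlap, but exon lengths differ between annotations, and the order rests on them. Without division by exon length CD81 was highest under siC, at 238 CPM. CD151 then stood at 219, CD63 at 216, TSPAN3 at 174 and CD9 at 154. TSPAN14 stood at 129 CPM and CD82 at 33.9, with exon lengths of 17888 and 4054 bases.

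**Figure D1:**
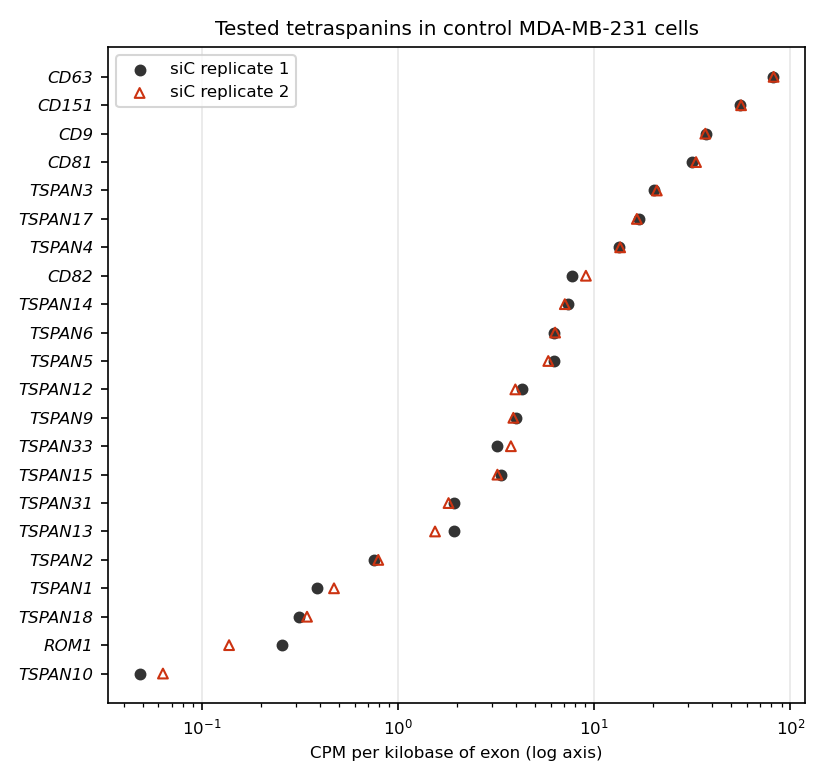
Level of the 22 tested tetraspanins in control cells, as CPM per kilobase of exon on a log axis, with 1 point for each of the 2 siC libraries. CD63, CD151, CD9 and CD81 stood above 30 in both libraries, and TSPAN10 was lowest at 0.0557 on average.

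Summed over the family, tetraspanin mRNA took a larger part of the reads in all siRNA libraries than in the controls. The sums were 1476 and 1490 CPM under siC, 1837 and 1857 with siE1, 1598 and 1614 after siE2, and 1714 and 1655 with siE3. The groups siC and siE1 were farthest apart, and no siRNA library overlapped the controls. Whether each cell held more of these mRNAs or the makeup of the culture differed cannot be told apart in bulk RNA.

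With siE1, 14 of the 22 tested members changed (edgeR adjusted p under 0.05; 50.3% of all 13395 tested genes did), of which 11 rose (24.5%) and 3 fell (25.8%). With siE2, 13 changed (56.4%), of which 9 rose (27.9%) and 4 fell (28.5%). TSPAN10, 1 of these 9, passed the filter through its siE2 counts alone. With siE3, 16 changed (42.1%), of which 11 rose (21.3%) and 5 fell (20.8%). In the average of the 3 siRNAs 13 changed (51.1%), of which 9 rose (23.4%) and 4 fell (27.7%). The median log2 fold change of the tested members was 0.27, 0.16 and 0.21 with siE1, siE2 and siE3, beside -0.01, 0.01 and 0.00 over all tested genes. In 7 members (15.1% of all genes) every siRNA library was above both controls, and in 1 (15.4%) every siRNA library was below both. The 3 comparisons share the siC libraries. The authors' deposited table calls 12, 11 and 11 of the tested members with siE1, siE2 and siE3, and each of these calls was also made here in the same direction. Both rest on the same counts. Called here only were TSPAN12 and TSPAN33 with siE1, and CD63 and TSPAN10 with siE2. With siE3 these were TSPAN1, TSPAN2, TSPAN31, TSPAN4 and TSPAN5. Changes of at least 1.5-fold were fewer: 4 members higher and 1 lower with siE1 (8.22% and 6.52% of all genes), 5 and 1 with siE2 (11.4% and 6.56%), 3 and 2 with siE3 (5.96% and 4.01%), and 2 and 0 in the average (6.75% and 2.78%). TSPAN10 is again among the 5 higher with siE2.

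**Figure D2:**
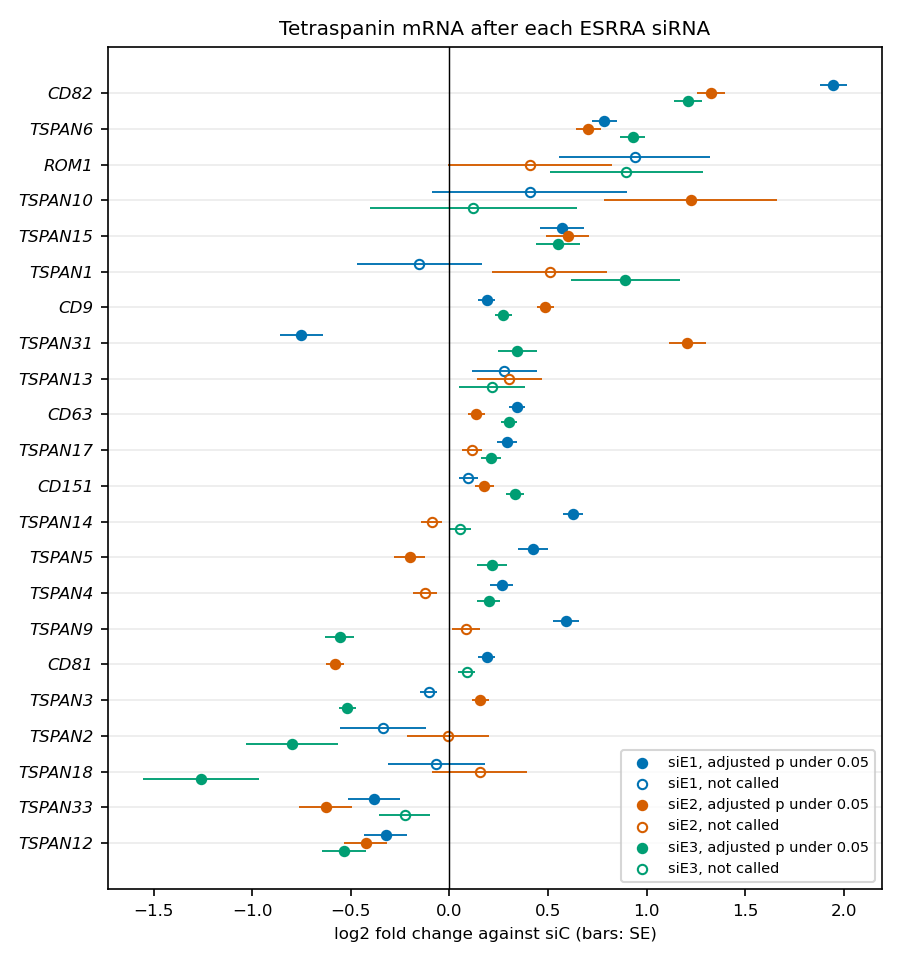
Log2 fold change against siC of each tested tetraspanin with siE1, siE2 and siE3, with bars of 1 SE, and filled points for an edgeR adjusted p under 0.05. CD82, at the top, lies between 1.21 and 1.95 with every siRNA, while TSPAN31 lies at -0.75 with siE1 and 1.21 with siE2.

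All 3 siRNAs raised 5 tested members, CD82, TSPAN6, TSPAN15, CD9 and CD63 (8.73% of all tested genes were raised by all 3), and lowered 1, TSPAN12 (7.42%). CD82 had the largest change of the tested members with siE1, with siE2 and in the average, and with siE3 TSPAN18 changed more (-1.26 against 1.21). It stood at 31.0 and 36.7 CPM under siC, 135 and 127 with siE1, 85.2 and 85.0 after siE2, and 80.5 and 76.7 with siE3. Every siRNA library was above both controls, and the siE1 libraries were above all others. The log2 fold change was 1.95 (SE 0.0688, edgeR adjusted p = 1.3e-11) with siE1, 1.33 (SE 0.0701, edgeR adjusted p = 7.4e-10) with siE2 and 1.21 (SE 0.0705, edgeR adjusted p = 4.0e-09) with siE3. These are 3.86-fold, 2.51-fold and 2.32-fold. The authors' deposited table gives 3.88-fold, 2.50-fold and 2.32-fold. The rise with siE1 exceeded that with siE2 by 0.62 (SE 0.0628, edgeR adjusted p = 7.0e-07) and that with siE3 by 0.74 (SE 0.0633, edgeR adjusted p = 2.0e-07), while siE2 and siE3 differed by 0.12 (SE 0.0648, edgeR adjusted p = 0.16).

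TSPAN6, a tetraspanin of endosomes, stood at 28.4 and 28.6 CPM under siC, 49.1 and 49.2 with siE1, 45.7 and 47.2 after siE2, and 52.7 and 55.9 with siE3. The controls were close together and well below every siRNA library. Its log2 fold changes were 0.79, 0.70 and 0.93, and siE3 exceeded siE2 by 0.23 (SE 0.0595, edgeR adjusted p = 0.0055). TSPAN15, a TspanC8 member, went from 8.85 and 8.48 CPM to 13.1 and 12.7, 12.5 and 13.8, and 13.5 and 11.9. It rose with each siRNA, by 0.57 (SE 0.110), 0.60 (SE 0.110) and 0.55 (SE 0.111), and no pair of siRNAs was called different (edgeR adjusted p = 0.72 to 0.88).

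CD9 and CD63 moved less. CD9 stood at 155 and 153 CPM under siC, 172 and 180 with siE1, 217 and 215 after siE2, and 188 and 185 with siE3, with log2 fold changes of 0.19, 0.49 and 0.27. CD63 was at 215 and 216 CPM under siC, 272 and 275 with siE1, 242 and 232 after siE2, and 264 and 267 with siE3. The siE2 libraries were the lowest of the siRNA libraries for CD63 and the highest for CD9. The log2 fold changes of CD63 were 0.34, 0.14 and 0.30. The siE2 call of CD63 (edgeR adjusted p = 0.011) was lost without siC replicate 1 (0.060), without siC replicate 2 (0.054) and without siE2 replicate 1 (0.12), and the authors' deposited adjusted p for it was 0.0691.

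TSPAN12, which helps the receptor FZD4 to answer the ligand norrin, was the only tested member lowered by all 3 siRNAs. It stood at 14.4 and 13.3 CPM under siC, 10.5 and 11.6 with siE1, 9.56 and 11.1 after siE2, and 9.33 and 9.82 with siE3, so that no siRNA library reached a control. The log2 fold changes were -0.32 (SE 0.109, edgeR adjusted p = 0.022), -0.43 (SE 0.110, edgeR adjusted p = 0.0040) and -0.53 (SE 0.112, edgeR adjusted p = 0.0013). The authors' deposited adjusted p with siE1 was 0.073. The siE1 call was lost with DESeq2 (adjusted p = 0.082), without siC replicate 1 (0.12) and without siE1 replicate 1 (0.14), and the siE2 call without siE2 replicate 1 (0.058). FZD4 fell with siE1 (-0.45), rose with siE2 (0.87) and was at -0.11 with siE3 (edgeR adjusted p = 0.30).

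**Figure D3:**
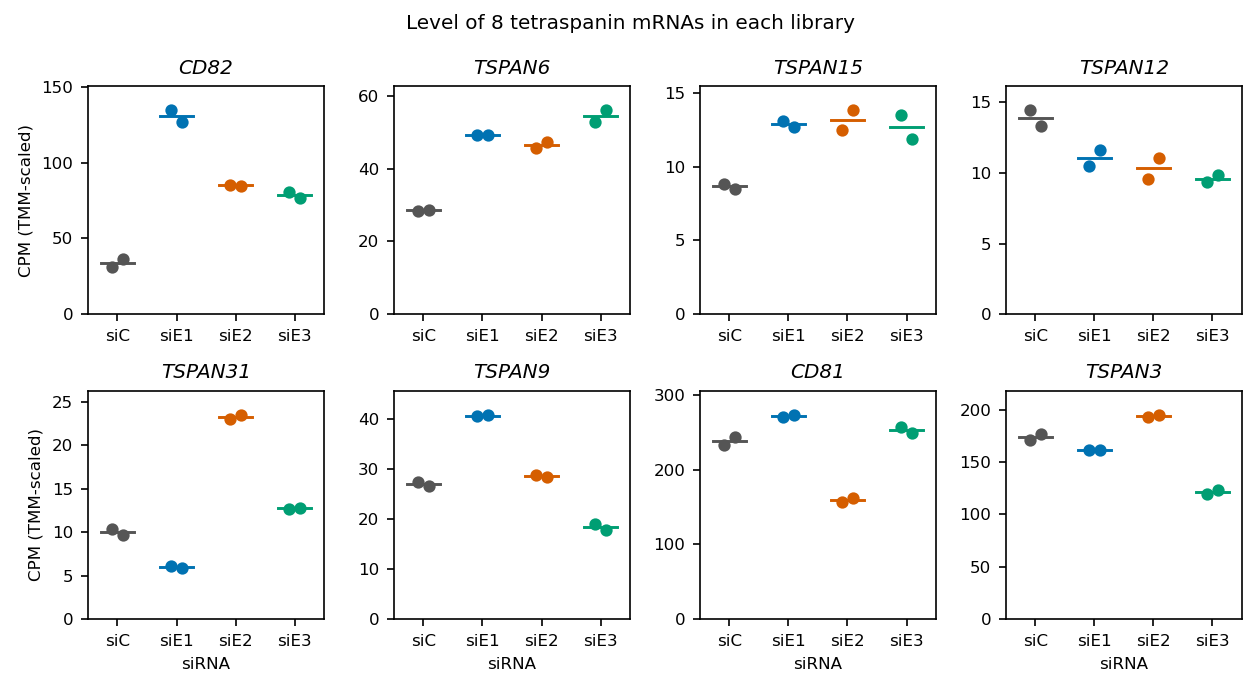
TMM-scaled CPM of 8 tetraspanin mRNAs in each library, with a bar at the mean of the 2 libraries of a group. In the top row CD82, TSPAN6 and TSPAN15 are above and TSPAN12 is below both siC libraries with every siRNA, and in the bottom row the direction of TSPAN31, TSPAN9, CD81 and TSPAN3 depends on the siRNA.

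Promoter sequence is shown for CD82 and TSPAN15, picked by name from the members raised by all 3 siRNAs. It is also shown for the tested members that hold the core of the ERR response element, TSPAN1 and TSPAN14. TSPAN6 also has a window and rose more than TSPAN15 in the average (0.81 against 0.57), but its sequence is not shown. Windows of 300 bases, from 250 before to 50 after a transcript start, came from RefSeq (GRCh38.p14), and 25 of the 33 members, 17 of the 22 tested, matched by symbol. Searched on both strands were TNAAGGTCA, an element bound by ERR receptors, and its core AAGGTCA, which lies inside it. GGGCGG, the GC box, was searched likewise. Each stretch runs 5′ to 3′ on the gene's strand, lies before a RefSeq start and holds no base of a GENCODE exon. Those of TSPAN15 and TSPAN1 lie before the first exon of the gene in GENCODE, while those of CD82 and TSPAN14 lie inside the gene, past its first GENCODE exon. Capitals mark AAGGTCA or TNAAGGTCA and GGGCGG, or their reverse complements.
CD82 (chr11:44565413-44565590, plus strand): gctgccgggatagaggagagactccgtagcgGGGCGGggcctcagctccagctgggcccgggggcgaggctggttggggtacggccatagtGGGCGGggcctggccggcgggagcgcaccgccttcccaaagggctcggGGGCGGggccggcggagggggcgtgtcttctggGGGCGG
TSPAN15 (chr10:69451215-69451464, plus strand): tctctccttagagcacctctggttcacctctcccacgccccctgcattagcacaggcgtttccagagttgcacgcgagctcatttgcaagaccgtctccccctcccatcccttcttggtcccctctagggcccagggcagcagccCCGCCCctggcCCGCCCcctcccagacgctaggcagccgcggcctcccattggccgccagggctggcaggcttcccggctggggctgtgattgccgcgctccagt
TSPAN1 (chr1:46174837-46175072, plus strand): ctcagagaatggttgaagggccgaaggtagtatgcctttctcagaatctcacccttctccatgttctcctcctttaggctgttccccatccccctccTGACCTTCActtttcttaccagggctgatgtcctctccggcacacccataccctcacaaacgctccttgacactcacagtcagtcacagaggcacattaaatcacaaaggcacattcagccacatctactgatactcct
TSPAN14 (chr10:80467991-80468240, plus strand): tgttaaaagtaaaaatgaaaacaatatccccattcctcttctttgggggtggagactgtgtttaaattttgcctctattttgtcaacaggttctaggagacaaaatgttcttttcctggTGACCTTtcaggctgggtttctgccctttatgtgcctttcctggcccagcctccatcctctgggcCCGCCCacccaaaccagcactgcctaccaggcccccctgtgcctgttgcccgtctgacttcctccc
The CD82 stretch holds 4 GC boxes and the TSPAN15 stretch 2. A GC box was in at least 1 window of 16 of the 25 matched members and in 48.3% of all 27305 genes with a window. TNAAGGTCA was found in TSPAN1 only among the members, 153 bases before the start, against 1.17% of all genes. The core was found in TSPAN1, TSPAN11 and in 1 of the 3 windows of TSPAN14, against 4.80% of all genes. No window of CD82, CD9, CD63, TSPAN6, TSPAN15 or TSPAN12 holds the core in these letters.

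In 5 tested members at least 1 siRNA gave a rise and another a fall (10.7% of all tested genes): TSPAN31, TSPAN9, CD81, TSPAN3 and TSPAN5. TSPAN31, a member first found amplified in sarcoma, showed the widest gap. It stood at 10.4 and 9.73 CPM under siC, 6.14 and 5.83 with siE1, 23.0 and 23.5 after siE2, and 12.7 and 12.9 with siE3. The 4 groups did not overlap. The log2 fold change was -0.75 (SE 0.110, edgeR adjusted p = 4.3e-05) with siE1, 1.21 (SE 0.0922, edgeR adjusted p = 3.6e-08) with siE2 and 0.35 (SE 0.0990, edgeR adjusted p = 0.011) with siE3. The siE1 and siE2 effects differed by -1.96 (SE 0.0990, edgeR adjusted p = 4.0e-10). The siE3 call was lost with DESeq2 (adjusted p = 0.054) and without siC replicate 2 (edgeR adjusted p = 0.089).

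TSPAN31 lies on chromosome 12, where 1369 bases of its exons (25.4% of its exon length in GENCODE v29) overlap exons of CDK4 on the other strand. The strand setting of the counting is not given, so reads of that stretch may belong to either gene. CDK4, a kinase of the cell cycle, stood at 265 ± 6.55 CPM under siC, 284 ± 0.785 with siE1, 261 ± 0.364 with siE2 and 230 ± 6.87 with siE3. Its log2 fold changes were 0.10, -0.02 and -0.20, of which siE3 alone was called (edgeR adjusted p = 0.0013). Only with siE3 were both genes called, TSPAN31 higher and CDK4 lower. The part of CDK4 reads in the TSPAN31 counts was not tested.

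TSPAN9, a tetraspanin known from platelets, stood at 27.4 and 26.7 CPM under siC, 40.6 and 40.8 with siE1, 28.8 and 28.5 after siE2, and 19.0 and 17.8 with siE3. It rose by 0.59 (SE 0.0671) with siE1, fell by 0.56 (SE 0.0737) with siE3 and was at 0.08 with siE2 (edgeR adjusted p = 0.33). The siE1 and siE3 effects differed by 1.15 (SE 0.0705, edgeR adjusted p = 5.4e-09). TSPAN3 had the lowest siE3 values too. It stood at 171 and 177 CPM under siC, 162 and 162 with siE1, 193 and 195 after siE2, and 120 and 123 with siE3. It fell by 0.52 (SE 0.0445) with siE3 and rose by 0.16 with siE2 (edgeR adjusted p = 0.0062), a call lost without siC replicate 1 (0.071).

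CD81 and CD9, close relatives that share partners such as IGSF8 and PTGFRN, parted with siE2. CD81 stood at 233 and 244 CPM under siC, 271 and 273 with siE1, 157 and 162 after siE2, and 257 and 249 with siE3. With siE2 it fell by 0.58 (SE 0.0442, edgeR adjusted p = 3.4e-08), where CD9 rose by 0.49 (SE 0.0432, edgeR adjusted p = 1.8e-07). With siE1 both rose, each by 0.19 (edgeR adjusted p = 0.0019 for each). With siE3 CD9 rose by 0.27, and CD81 was at 0.09 (edgeR adjusted p = 0.12). Against siC the partners IGSF8 (0.21, 0.28 and 0.24) and PTGFRN (-0.08, 0.35 and -0.31) were called with no siRNA. PTGFRN was higher with siE2 than with siE3 by 0.67 (edgeR adjusted p = 0.0037). Its siE1 and siE2 effects differed by -0.43 (edgeR adjusted p = 0.030). Both partners were named after their values had been seen.

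Of 7 tested surface tetraspanins of adhesion, 5 rose and none fell with siE1 (24.5% and 25.8% of all tested genes), 3 rose and 1 fell with siE2 (27.9% and 28.5%), and 4 rose and 2 fell with siE3 (21.3% and 20.8%). CD151 rose with siE2 (0.18, edgeR adjusted p = 0.0050) and siE3 (0.33, edgeR adjusted p = 4.3e-05) and was at 0.10 with siE1 (edgeR adjusted p = 0.10). It stood at 217 and 221 CPM under siC, 236 and 232 with siE1, 243 and 251 after siE2, and 287 and 264 with siE3. No siRNA library was below a control. The siE2 call was lost without siE2 replicate 2 (0.055). TSPAN4 was at 78.2 and 79.1 CPM under siC and rose with siE1 (0.27, edgeR adjusted p = 0.0014) and siE3 (0.20, edgeR adjusted p = 0.013), against -0.12 with siE2 (edgeR adjusted p = 0.092). The siE3 call of TSPAN4 was lost without siC replicate 1 (0.065), without siC replicate 2 (0.051) and without siE3 replicate 1 (0.15).

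The TspanC8 members, which bind ADAM10, did not move as 1 group. All 6 were tested: 4 rose and 1 fell with siE1 (24.5% and 25.8% of all tested genes), 2 rose and 2 fell with siE2 (27.9% and 28.5%, close to the share in the list), and 3 rose and none fell with siE3 (21.3% and 20.8%). TSPAN10, 1 of the 2 that rose with siE2, passed the filter through siE2 alone. Beside TSPAN15, above, TSPAN14 rose with siE1 only, from 132 and 127 CPM to 194 and 205 (0.63, SE 0.0523, edgeR adjusted p = 1.2e-07). It was at 118 and 125 CPM with siE2 and 139 and 129 with siE3. The siE1 effect on TSPAN14 exceeded that of siE2 by 0.72 (edgeR adjusted p = 2.0e-08) and that of siE3 by 0.57 (edgeR adjusted p = 3.8e-07). TSPAN17 rose with siE1 (0.29) and siE3 (0.21, edgeR adjusted p = 0.0035), and was at 0.12 with siE2 (edgeR adjusted p = 0.066), a value that passed with library size alone (0.017) and with a stricter filter on low counts (0.033).

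TSPAN5 stood at 46.5 and 43.3 CPM under siC, 57.0 and 63.3 with siE1, 37.2 and 40.8 after siE2, and 55.2 and 49.2 with siE3. The siE1 and siE3 libraries were above and the siE2 libraries below both controls. It rose by 0.42 (SE 0.0757, edgeR adjusted p = 2.5e-04) with siE1. The smaller changes with siE2 (-0.20, edgeR adjusted p = 0.039) and siE3 (0.22, edgeR adjusted p = 0.033) were lost with DESeq2 (0.067 and 0.061). They were also lost without siC replicate 1 (siE2, 0.21), without siE2 replicate 1 (siE2, 0.27), without siC replicate 2 (siE3, 0.21) and without siE3 replicate 1 (siE3, 0.27). With the replicate number as a block the siE2 and siE3 values were 0.061 and 0.056. With library size alone or a stricter filter the siE2 value was 0.12 or 0.062.

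TSPAN33, at 8.81 and 10.3 CPM under siC, was at 7.50 and 7.22 with siE1, 6.14 and 6.26 after siE2, and 7.36 and 9.0 with siE3. It fell by 0.63 (SE 0.135, edgeR adjusted p = 9.6e-04) with siE2 and by 0.38 with siE1 (edgeR adjusted p = 0.024). The siE1 call was lost with DESeq2 (adjusted p = 0.091), without siC replicate 2 (0.21), without siE1 replicate 1 (0.058) and without siE1 replicate 2 (0.11). TSPAN10 had 5 to 15 counts per library and was at 1.22 with siE2 (edgeR adjusted p = 0.027). Only siE2 had counts high enough for the filter in both libraries (14 and 15), so this p-value is no support for the rise. The call was lost with no filter, with DESeq2 and with each siC or siE2 library left out. With any 1 library left out the value was 1.05 to 1.43. A stricter filter on low counts dropped the gene. ADAM10 itself, named after its values had been seen, rose with siE2 (0.40, edgeR adjusted p = 1.3e-06), fell with siE3 (-0.22, edgeR adjusted p = 6.4e-04) and was at 0.06 with siE1 (edgeR adjusted p = 0.25).

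Among the members with few counts, TSPAN18 had 40 and 47 counts under siC, 46 and 42 with siE1, 42 and 57 after siE2, and 14 and 22 with siE3. It fell by 1.26 (SE 0.294, edgeR adjusted p = 0.0029) with siE3, and the siE3 value was below that of siE1 and of siE2 (differences of 1.19 and 1.41, edgeR adjusted p = 0.0036 and 8.2e-04). TSPAN2 had 56 and 63 counts under siC and 29 and 39 with siE3 (-0.80, edgeR adjusted p = 0.012). TSPAN1, with 20 and 26 counts under siC and 48 and 37 with siE3, rose by 0.89 (edgeR adjusted p = 0.017). The siE3 call of TSPAN2 was lost with DESeq2 (0.061), without siC replicate 2 (0.065) and without siE3 replicate 1 (0.097), and that of TSPAN1 with DESeq2 (0.10), without siC replicate 1 (0.10) and without siE3 replicate 1 (0.15). TSPAN13 and the disc protein ROM1 were called with no siRNA, as were 21.2% of all tested genes. TSPAN13 was at 0.28, 0.30 and 0.22, and ROM1, with 8 to 25 counts, at 0.94, 0.41 and 0.90. For ROM1, siE1 passed without siC replicate 1 (1.43, 0.034), with library size alone (0.04997), with limma-voom (0.044) and with only the groups compared (0.045), and siE3 passed without siC replicate 1 (1.39, 0.049). Of the exon length of ROM1, 24.8% overlaps EML3 on the other strand.

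Set against each other, the siRNAs differed in 11 of 22 tested members (siE1 and siE2, 57.1% of all genes), 9 (siE1 and siE3, 48.7%) and 15 (siE2 and siE3, 48.5%). At least 1 of these pairs differed for 18 members (75.2% of all tested genes). TSPAN10 entered both the 15 and the 18 through siE2 and siE3. It passed the filter through its siE2 counts alone, so this call is no support for a difference. The 4 members without a called difference between siRNAs were TSPAN12, TSPAN13, TSPAN15 and ROM1.

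Genes around the tetraspanins were taken from lists of partners. In the average of the 3 siRNAs, 23.4% of all tested genes rose and 27.7% fell, with a median of -0.01. Of 10 tested integrins and immunoglobulin proteins, 6 rose and none fell in that average, with a median of 0.37. ITGB4, the β4 chain of the laminin receptor that CD151 binds, rose by 1.47 (SE 0.0797, edgeR adjusted p = 1.7e-09). ITGA3 rose by 0.75, ITGA2 by 0.62, IGSF3 by 0.40, ITGA6 by 0.34 and ITGB1 by 0.18. ITGA6 was at 0.08 with siE2 (edgeR adjusted p = 0.19). ITGA3 rose most with siE2 (1.25, against 0.42 and 0.58). IGSF3 rose with siE1 (1.01) and siE3 (0.33) and was at -0.15 with siE2 (edgeR adjusted p = 0.16). Taken by siRNA, 7 of the 10 genes rose and 1 fell with siE1 (24.5% and 25.8% of all tested genes). With siE2 5 rose and 0 fell (27.9% and 28.5%), and with siE3 6 and 0 (21.3% and 20.8%).

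Of 12 tested genes for ADAM10, ADAM17 and the proteins they shed, 7 rose and none fell in the average (median 0.26), against 23.4% and 27.7% of all tested genes. L1CAM, an adhesion protein cut by ADAM10, rose by 0.98, the growth factor TGFA by 0.72, NOTCH2 by 0.30, ADAM17 by 0.27, PRNP by 0.27 and APP by 0.18. L1CAM, TGFA and APP were called higher with each siRNA. NOTCH2 was at -0.06 with siE1 (edgeR adjusted p = 0.49). With siE3 ADAM17 was at 0.006 (edgeR adjusted p = 0.94) and PRNP at 0.07 (edgeR adjusted p = 0.22). Taken by siRNA, 7 of the 12 genes rose and 2 fell with siE1 (24.5% and 25.8% of all tested genes). With siE2 8 rose and 1 fell (27.9% and 28.5%), and with siE3 5 and 1 (21.3% and 20.8%). Of 14 tested receptors and enzymes known to join tetraspanin complexes, 4 rose and none fell in the average (median 0.05). The share that rose was near the 23.4% of all tested genes. Among these 4 were the collagenase MMP14 (0.75), MET (0.37) and the lipid kinase PI4K2A (0.18). PI4K2A was at 0.07 with siE3 (edgeR adjusted p = 0.26). PRKCA (0.07, edgeR adjusted p = 0.14) and FZD4 (0.10, edgeR adjusted p = 0.19) were not called in the average. With each siRNA 1 of the 14 fell (25.8%, 28.5% and 20.8% of all tested genes). With siE1, siE2 and siE3, 5, 8 and 3 rose (24.5%, 27.9% and 21.3%).

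Of 28 genes of vesicle formation, 15 rose and 5 fell in the average (median 0.17), against 23.4% and 27.7% of all tested genes. SDCBP (syntenin), an adaptor that loads syndecans and CD63 into vesicles, rose by 0.45, 0.41 and 0.48 with the 3 siRNAs. The GTPases RAB27A and RAB27B, which bring vesicle-bearing endosomes to the membrane, rose by 0.79 and 1.05 in the average, and the ESCRT subunit CHMP4B by 0.48. VPS4A, the ATPase that takes ESCRT apart, fell by 0.39 in the average, and its cofactor VTA1 by 0.40. Both were lowest with siE2 (-0.77 and -0.63). VTA1 was at -0.07 with siE1 (edgeR adjusted p = 0.22).

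**Figure D4:**
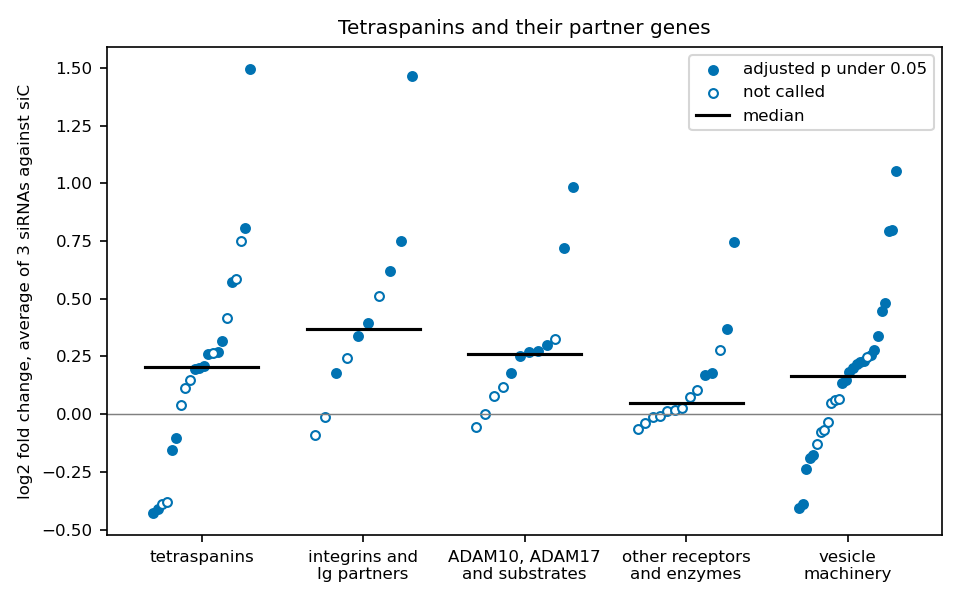
Log2 fold change in the average of the 3 siRNAs against siC for the 22 tested tetraspanins and for the tested genes of 4 partner lists, 1 point per gene, filled where the edgeR adjusted p is under 0.05, with a line at the median. The medians are 0.20 for the tetraspanins and 0.37, 0.26, 0.05 and 0.17 for the lists, and CD82 is the highest tetraspanin, 2.82-fold above siC.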

How the data were processed

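Build hg19 and the tools DESeq, HTSeq and TopHat 1.3.3 are listed, without their roles, per the submitters' processing notes. No source used here gives the annotation or the strand setting of the counting. The deposited table holds raw counts per gene symbol for 8 libraries, with the authors' fold (a linear ratio) and the authors' adjusted p-value for each siRNA against siC. Libraries were grouped by their titles. No row lacked a gene name.

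edgeR 4.0.16 (R 4.3.3) was used with filterByExpr (13395 genes kept), TMM factors (0.980 to 1.02) and 1 quasi-likelihood fit over all 8 libraries (a mean per siRNA, 4 residual degrees of freedom). P-values were Benjamini-Hochberg adjusted over all tested genes, and a call is an adjusted p under 0.05. Standard errors (SE) were derived from the fold change and the F statistic. Floors cover counting error only.

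Every member is named, and of each partner list up to 6 genes with the smallest p in the average. Some genes of the lists are not reported here. The members and lists were chosen with earlier results of these data known, so p-values adjusted over a list alone are not given. DESeq2 1.42.0, limma 3.58.1 and other alternatives are given in the closing section. Plots used matplotlib 3.10.9.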

Additional observations from a re-analysis of the deposited data

Results flagged for a closer look

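For 5 members 2 siRNAs against the same gene were called in opposite directions and also differed from each other (edgeR). For TSPAN31 the siE1 effect was lower than that of siE2 by 1.96 and than that of siE3 by 1.10, differences of -1.96 and -1.10 on the log2 scale (edgeR adjusted p = 4.0e-10 and 7.3e-07). For TSPAN9 siE1 exceeded siE3 by 1.15 (edgeR adjusted p = 5.4e-09). For CD81 siE1 exceeded siE2 by 0.77 (edgeR adjusted p = 1.4e-09). For TSPAN3 siE2 exceeded siE3 by 0.67 (edgeR adjusted p = 1.2e-08). For TSPAN5 siE1 exceeded siE2 by 0.63 (edgeR adjusted p = 5.0e-06), and siE2 was below siE3 (-0.42, edgeR adjusted p = 3.8e-04).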

How the results depend on the processing

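Of 56 calls of a member in a comparison with siC, 39 held wherever they were recomputed, and 17 were lost in at least 1 alternative. The 16 alternatives changed scaling, filter, tool, libraries or the block. The average was not recomputed with only the groups compared, and a member dropped by a filter was not counted as lost. Of 1462 values recomputed for single members, 10 changed sign, none of them called. These were TSPAN2 with siE2, at 0.034 with library size only and 0.0098 with the stricter filter, and, with a library left out, TSPAN2 with siE2 (-0.26 to 0.20), TSPAN1 with siE1 (-0.49 to 0.087), TSPAN10 with siE3 (-0.21 to 0.38), and TSPAN18 with siE1 (-0.25 to 0.11) and siE2 (-0.083 to 0.35). In the average the calls of CD81, TSPAN3, TSPAN31 and TSPAN33 were lost without siC replicate 2 (edgeR adjusted p = 0.29, 0.051, 0.15 and 0.12). CD81 also lost it with library size only (0.058) and without siE2 replicate 1 (0.067), and TSPAN31 with DESeq2 (adjusted p = 0.065).

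Requiring a fold of 1.5 left 4 higher and 1 lower with siE1, 5 and 1 with siE2, 3 and 2 with siE3, and 2 and 0 in the average. It left 5, 5 and 7 differences (siE1 and siE2, siE1 and siE3, siE2 and siE3). TSPAN10, which passed the filter through its siE2 counts alone, is among the 5 higher with siE2 and among the 7. DESeq2 called 1 member lower with siE1. With a library left out, lower calls ranged from 1 to 4 with siE1 (1 without siE1 replicate 1), 2 to 4 with siE2 (2 without siE2 replicate 1) and 1 to 4 in the average (1 without siC replicate 2).

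Same-numbered libraries showed no strong common deviation (correlations of -0.18 to 0.11). The labels do not say what they share beyond the number, and these correlations, from 1 difference per group, cannot settle it. With the replicate number as a block, the calls against siC over all genes went from 6744, 7560 and 5643 to 6334, 7225 and 5221, and among the members TSPAN5 lost its siE2 and siE3 calls (edgeR adjusted p = 0.061 and 0.056). Where a group kept 1 library, that library is assumed to vary like the other groups.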

Other observations

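Several partner genes were set apart by a single siRNA. They were picked after their values were seen. SDC2, a syndecan that syntenin binds, was at 0.34 with siE1, 0.80 with siE2 and -1.53 with siE3, each called by edgeR, and its counts were 571 and 565 under siC against 185 and 207 under siE3. The integrin chain ITGA7 rose by 1.81 with siE1, from 21 and 23 to 78 and 86 counts, and was at -0.03 and -0.24 with siE2 and siE3. NOTCH3 rose by 1.23 with siE1 (49 and 61 to 121 and 153 counts) and was at -0.35 and 0.10 with the other siRNAs. The growth factor HBEGF rose by 0.81 with siE1, fell by 0.20 with siE2 and was at 0.14 with siE3.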
